A study of Danio rerio with 24 samples.

Results

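Skeletal muscle of untrained wild-type adult zebrafish was examined for its baseline expression: which genes take the RNA, which copy of each duplicated muscle gene is read, and which genes differ most from library to library. The labels put 8 samples in this group, and 7 of them (replicates 2 to 8) were analysed here, out of 21 samples analysed in the whole series. The fish were 4 months old, wild-type, carried no transgene and had no training. The labels do not give the strain, and they do not say whether a sample was 1 fish or a pool, so the spread between libraries may be biological or technical. The remaining samples analysed were 7 of trained wild-type fish and 7 of untrained fish that overexpress PGC1alpha from a transgene; they appear below only to show whether a spread seen in untrained wild-type muscle was also present elsewhere. In bulk tissue, fewer cells of a type and less RNA per cell cannot be told apart.

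The trunk muscle of a teleost fish is mostly fast fibre, which contracts quickly on phosphocreatine and glycolysis, with a thin layer of slow fibre that works aerobically. In each sarcomere, myosin of the thick filament pulls on actin of the thin filament once calcium released from the sarcoplasmic reticulum binds the troponin complex, and calcium pumps and parvalbumin then take the calcium away. The ancestor of teleosts duplicated its genome, and many zebrafish muscle genes are therefore kept as an a copy and a b copy, while others, such as the fast myosin heavy chains, lie as neighbouring copies.

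Polyadenylated RNA was counted per gene as reads, at 75.1 ± 2.66 M counts over genes in a library (SD, n = 7; 71.0 to 79.2 M). Of 31953 genes, 5340 had a mean of at least 10 CPM (counts scaled to the same library total) and 85 a mean of at least 1000. Shares below are shares of all counts over genes in a library, and CPM values are scaled by TMM, which sets a typical gene level between libraries, so that a gene's CPM and its share can differ. Replicate 7 stood apart: its TMM factor was 1.71 where the next highest was 1.16, and 71 genes were needed to reach 50% of its counts where the other libraries needed 17 to 26. On the first principal component, which held 47.9% of the variance, replicates 7, 5 and 3 lay at 39.96, 27.9 and 11.7 and the remaining 4 libraries between -25.1 and -16.7. Many of the results are also given without these 3 libraries, beside the value or in the closing section.

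The label of skeletal muscle was checked against marker genes. All 7 fast muscle markers had a mean of at least 10 CPM, and so did 4 of 5 slow muscle markers. Of 5 heart markers, 4 were below 1 CPM (nppa, the atrial natriuretic peptide gene, had no counts) and vmhc, a ventricular myosin heavy chain gene, had 28.9 CPM. All 3 lens and eye markers were below 1 CPM. Markers of other cells were present. All 3 endothelium markers reached 10 CPM (21.2 to 42.9 CPM), as did 2 of 3 tendon and connective markers (up to 244.2 CPM). The same held for 2 of 4 nerve and glia markers and 2 of 5 white blood cell markers, and red blood cell markers reached 322.4 CPM. Of 4 skin markers, 2 reached 10 CPM. The higher was krt5, with a mean of 169.4 CPM, a median of 84.5 CPM and 714 CPM in replicate 7. No bone and cartilage, liver, germ line, motile cilia or satellite cell marker reached 10 CPM, and 1 adipocyte marker did.

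A small set of genes took a large part of the RNA. The 20 genes with the highest mean share together held 47.9% ± 5.48 of the counts (36.6% to 53.2%). Of these 20, 7 were fast fibre contractile genes, 4 were mitochondrially encoded, 3 handle calcium, 2 are glycolytic, 2 are creatine kinases and 1 is the titin gene ttn.2, which encodes the elastic protein spanning the sarcomere. The last was nme2b.2, a nucleoside diphosphate kinase gene in none of the lists.

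The highest share was that of myhc4, a fast myosin heavy chain gene, with 3.56% in the lowest library, 6.55% at the median and 11.3% in the highest (mean 6.57% ± 2.47, SD, n = 7). Replicate 8 was the highest and replicate 7 the lowest. The kinase gene nme2b.2 took 2.62% to 9.00%, with a median of 5.20%. Here replicate 3, and not 8, was the highest, and replicate 7 was again the lowest.

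The muscle creatine kinase genes ckmb and ckma, whose enzyme restores ATP from phosphocreatine, followed with 5.0% ± 1.17 and 3.14% ± 0.575. The lowest library for both was replicate 5, at 2.91% and 2.07%. The fast-muscle calcium pump gene atp2a1l held 2.70% ± 0.268 and the calcium buffer gene pvalb4 2.11% ± 0.170, and their shares spanned 2.32% to 2.95% and 1.79% to 2.30%. These shares lay close together in all 7 libraries, replicate 7 included. The glycolytic gene gapdh held 2.65% ± 0.787 and the muscle aldolase gene aldoaa 0.924% ± 0.330.

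Of the thin filament genes, the actin gene actc1b held 2.74% ± 0.931, with 1.62% in replicate 7 and 4.42% in replicate 5. The troponin T gene tnnt3b held 1.31% ± 0.247 and the tropomyosin gene tpma 1.17% ± 0.304. Myosin light chain genes mylpfa and mylz3 held 2.13% ± 0.458 and 0.9003% ± 0.174. Over the 20 genes, 12 had their lowest share in replicate 7 and 4 had it in replicate 5.

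The mitochondrial genome encodes core subunits of the respiratory chain. Its 13 protein genes held 10.5% ± 2.38 of the counts (8.17% to 14.8%), led by the cytochrome c oxidase subunit gene mt-co1 at 4.49% ± 0.737. Replicate 5 was highest, with 14.8%, and replicate 8 lowest, with 8.17%. Mt-co2, mt-co3 and the cytochrome b gene mt-cyb held 1.31% ± 0.280, 1.24% ± 0.330 and 1.11% ± 0.395.

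**Figure D1:**
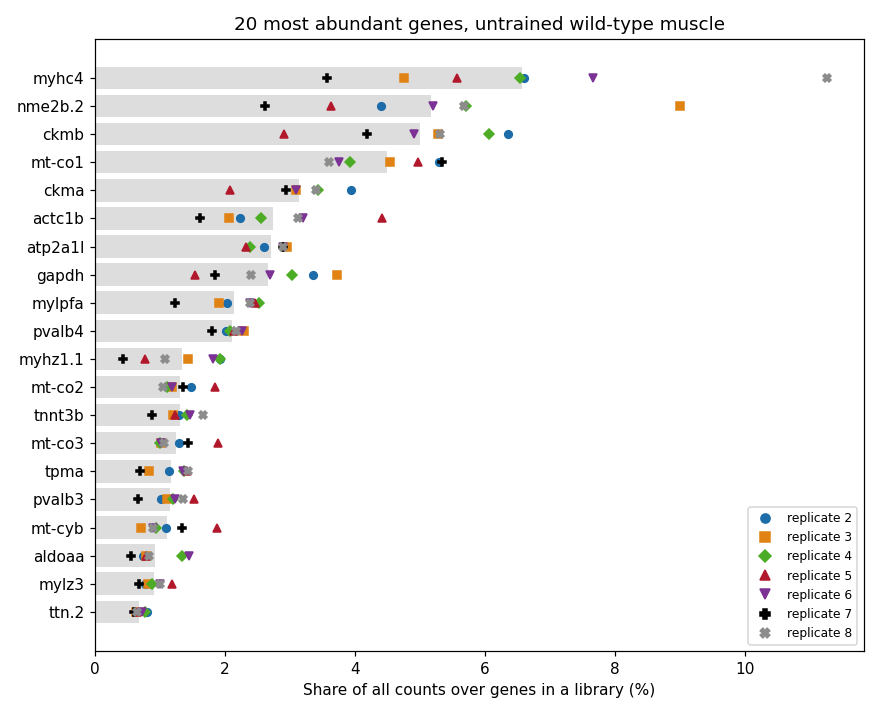
The horizontal axis is the share of all counts over genes in a library, in percent, and each row is one of the 20 genes with the highest mean share. Grey bars are the mean of 7 libraries and each symbol is 1 library; myhc4 runs from 3.56% to 11.3%, whereas pvalb4 stays between 1.79% and 2.30%.

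By gene list, fast fibre contractile genes held 18.7% ± 4.36 of the counts and slow fibre contractile genes 0.551% ± 0.072 (SD, n = 7). The fast list had 24.5% in replicate 8 and 11.2% in replicate 7, and the slow list 0.447% to 0.654%. No library of either list came near the range of the other. Creatine and adenylate buffer genes held 9.11% ± 1.76, calcium handling genes 7.71% ± 0.550, glycolysis and glycogen genes 5.43% ± 1.34, and Z disc and M band genes, which anchor the filaments, 2.61% ± 0.238. Glycolysis was lowest in replicates 7 and 5, at 3.65% and 3.82%, and at 4.82% to 6.81% in the others. Without replicates 3, 5 and 7 the fast list held 21.1%, the slow list 0.556%, glycolysis 6.05% and the mitochondrially encoded genes 9.45%.

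Within gene families, 1 member usually took most of the reads. Reads grow with transcript length and gene lengths were not used here, so shares of reads within a family or pair are not molar amounts. Copies with near-identical sequence are also uncertain, since reads aligned to more than 1 place (9.07% ± 1.05 of all reads) were set aside in the counting. For the members of a family, the share of its reads is given as mean ± SD over 7 libraries.

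Fast and embryonic myosin heavy chains, the motors of the thick filament, were led by myhc4 in all 7 libraries, at 81.3% ± 5.47 of the family's reads (75.7% to 90.7%). Second came myhz1.1, at 16.8% ± 6.37, and after it myha, at 1.62% ± 2.02. The myhz1.1 share split the libraries: it was 19.2% to 23.1% in replicates 2, 3, 4 and 6 and 8.65% to 11.4% in replicates 5, 7 and 8. The symbol myhz1.1 stands for 2 gene IDs in the table, and these values are for ENSDARG00000102414; the other had a mean of 8.06 CPM. In RefSeq's GRCz12tu assembly, 6 of the 7 family genes that matched lie next to another member.

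Slow and cardiac myosin heavy chains were led by smyhc2, at 70.5% ± 6.07 of their reads, over smyhc1, at 23.0% ± 4.50. The mean level of smyhc2 was 1180 CPM (617 to 2022). Among myosin light chains, the fast regulatory chain gene mylpfa took 62.5% ± 2.95, mylz3 26.7% ± 2.78 and myl1 5.70% ± 1.17. These 3 kept that order in every library.

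Thin filament families were more one-sided. Among sarcomeric actins, actc1b took 98.2% ± 0.586 of the reads and acta1b 1.15% ± 0.688. Tropomyosin was led by tpma at 89.3% ± 2.14, troponin T by tnnt3b at 95.3% ± 1.99, and troponin C, the calcium sensor, by tnnc2 at 91.7% ± 2.12. Troponin I, the inhibitory subunit, was divided between tnni2b.2 at 52.1% ± 5.07 and tnni2a.3 at 34.4% ± 5.49. The 2 came closest in replicate 5, at 42.7% and 40.6%, and tnni2b.2 led in all 7 libraries.

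Calcium handling families ranged from one-sided to evenly divided. The calcium pump was led by atp2a1l at 84.5% ± 3.33, with atp2a1 at 10.9% ± 2.47 and atp2a2a at 4.58% ± 1.17. Parvalbumin reads came from pvalb4 (53.1% ± 5.49), pvalb3 (28.6% ± 4.02), pvalb2 (10.3% ± 5.03) and pvalb1 (6.73% ± 1.71). The pvalb2 share was 12.6% to 17.2% in replicates 5, 7 and 8 and 6.22% to 7.04% in replicates 2, 3, 4 and 6, the same division of the libraries as for myhz1.1. Ryanodine receptors, which release calcium, were the least settled family: ryr3 took 49.55% ± 5.52 and ryr1b 41.1% ± 3.35. Ryr3 led in 6 libraries and ryr1b in replicate 7. Calsequestrin, which stores calcium, was led by casq1a at 63.9% ± 3.77.

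Energy families had a constant leader in all 7 libraries. Creatine kinase reads came mainly from ckmb (57.9% ± 2.76) and ckma (36.7% ± 1.51), with the mitochondrial kinase ckmt2a at 4.18% ± 1.38. Enolase was led by eno3 (91.7% ± 2.48), aldolase by aldoaa (85.4% ± 3.66) and lactate dehydrogenase by ldha (62.9% ± 5.64), with ldhba at 35.8% ± 5.50. The carriers that exchange ADP for ATP across the inner mitochondrial membrane were divided between slc25a5 (60.6% ± 5.91) and slc25a4 (39.3% ± 5.91). The outer membrane channel was led by vdac2 (73.5% ± 3.67), and alpha actinin of the Z disc by actn3b (64.0% ± 4.82).

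**Figure D2:**
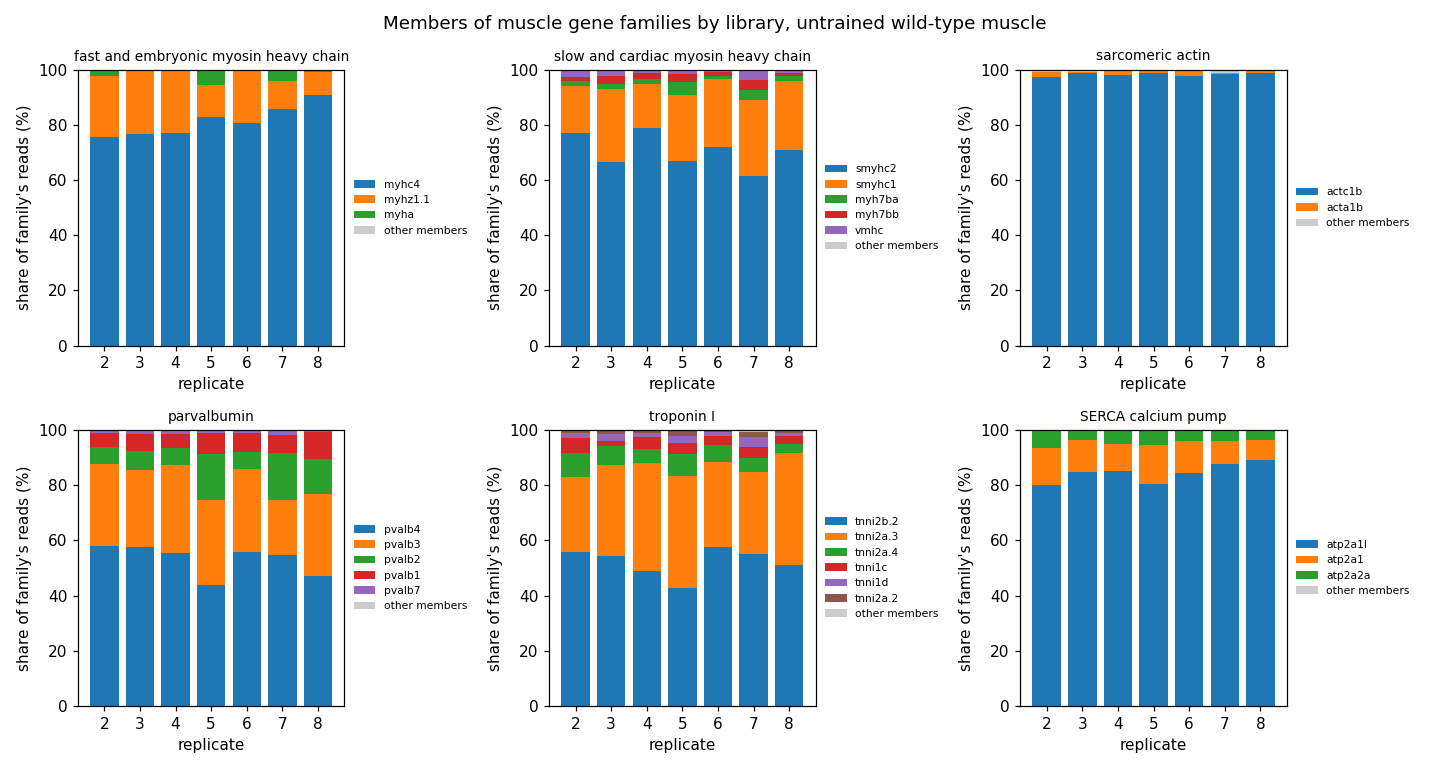
Each panel is 1 gene family, each bar 1 library (replicates 2 to 8), and the vertical axis is the share of the family's reads in percent, stacked by member; members that never reach 1% are pooled as other members. The leading member is the same in all bars of every panel, while the myhz1.1 and pvalb2 shares differ between replicates 5, 7 and 8 and the others.

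For a and b copies, the table held 2756 pairs of symbols that differ only in a final a or b, and 2280 of these had a mean of at least 50 counts. An edgeR quasi-likelihood F test compared the reads of a member with those of its partner within each library, with Benjamini-Hochberg adjustment over all 2280 pairs. Of a list of 114 muscle gene pairs, 88 were in the table and 86 were tested. The members differed in reads at an adjusted p under 0.05 in 75 of the 86 muscle pairs (87.2%; 74 without replicates 3, 5 and 7), against 83.8% of all pairs tested. A difference of at least 2-fold was found in 69 muscle pairs (80.2%), against 74.1% of all pairs. Both shares lay within several percentage points of those of all pairs. One member held at least 90% of the reads in 38 muscle pairs (44.2%), against 34.5% of all pairs, and the same member led in all 7 libraries in 71 (82.6%), against 76.9%. The median share of the leading member was 87.5% over muscle pairs and 81.4% over all pairs.

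By role, 14 of 16 contractile pairs, 13 of 15 Z disc pairs, 6 of 8 calcium pairs and 5 of 5 membrane pairs had a called difference of at least 2-fold in reads. So did 15 of 22 energy pairs, 5 of 6 signalling pairs, 11 of 11 transcription factor pairs and 0 of 3 other pairs, against 74.1% of all pairs. The a member led in 38 of the 86 muscle pairs and the b member in the rest, while over all pairs the a member led in 53.5%. Of the 86 pairs, 64 also shared 1 gene description apart from the final letter; idh3a and idh3b, for example, are paired by symbol but encode different subunits of isocitrate dehydrogenase.

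In contractile pairs, mylpfb had 219 reads over all 7 libraries against 11222700 of mylpfa, and tnnt3a had 234 against 6873420 of tnnt3b. Fitted ratios of members so close to 0 depend on the prior count and are not given. The actin copy actc1a held 0.206% ± 0.148 of its pair's reads and mybpha, of a myosin binding protein pair, 9.15% ± 2.06. In the pair for myosin binding protein C of fast muscle, mybpc2a held 12.4% ± 3.79 (7.12% to 19.1%), a log2 ratio of a to b of -2.88 ± 0.20 (SE; edgeR adjusted p = 1.02e-06). The M band gene myom2a, by contrast, led its pair with 82.6% ± 1.95. In 4 of these 6 pairs the b copy had more reads.

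Creatine kinase, the pair with the most reads, was uneven by less than 2-fold. The ckma share of reads was 36.1% in the lowest library, 38.7% at the median and 41.6% in the highest, with a log2 ratio of -0.66 ± 0.11 (SE; edgeR adjusted p = 0.000364). All 7 libraries lay below an equal split and within a few percentage points of each other. The mitochondrial pair went the other way, with ckmt2a at 77.6% ± 2.59 of its reads.

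Other energy pairs had a strong leader in either copy. Reads came from aldoaa at 86.6% ± 2.86 and from the glycogen phosphorylase copy pygma at 99.3% ± 0.244. They came from the b copy for pyruvate kinase, where pkma held 3.01% ± 1.56, for the ATP synthase subunit gene atp5g3a at 21.3% ± 1.12, and for triose phosphate isomerase, where tpi1a held 0.101% ± 0.127. The pdha1b gene, paired with pdha1a of the pyruvate dehydrogenase complex, had 81 reads against 302326. Each of these pairs kept its leader in all 7 libraries.

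In the Z disc, actn3b led over actn3a, which held 29.2% to 42.7% of the reads with a median of 36.3%, a log2 ratio of -0.85 ± 0.14 (SE; edgeR adjusted p = 0.000289). Ldb3a, of the pair for a Z disc linker protein, held 17.3% ± 3.46. The a copy led for smyd1, which acts in myosin assembly, at 75.2% ± 7.83, for the filamin gene flnca at 90.8% ± 2.53 and for the desmin gene desma at 99.8% ± 0.123. Of these 5 pairs the smyd1a share spread most, from 60.5% in replicate 3 to 85.5% in replicate 2.

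In calcium pairs, atp2a2a held 98.7% ± 0.836 of its pair's reads, and casq1a held 59.3% to 70.5% with a median of 66.7%, a log2 ratio of 0.999 ± 0.13 (SE; edgeR adjusted p = 5.09e-05). The troponin C gene tnnc1a, whose pair was counted above among the contractile pairs, had 10 reads against 251037 of tnnc1b, the slow copy. Cacng1b, paired with the calcium channel gamma subunit gene cacng1a, had no reads against 41924. The limit that a count of 0 allows is 3 counts over the 7 libraries.

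The most even muscle pairs with at least 50 CPM were myh7b, gyg1, pfkm, pabpc1 and got2. For the phosphofructokinase pair the pfkma share of reads was 29.3% in the lowest library, 52.1% at the median and 58.1% in the highest (log2 ratio -0.22 ± 0.22, SE; edgeR adjusted p = 0.357). Libraries fell on both sides of an equal split, with pfkmb leading in 3. For glycogenin, gyg1a ranged from 37.5% in replicate 4 to 70.15% in replicate 7 (adjusted p = 0.688), and for the myosin pair myh7ba ranged from 36.6% to 68.4% (adjusted p = 0.957). Pabpc1a, of a poly(A)-binding protein pair, ranged from 43.2% to 68.8% (adjusted p = 0.388) and got2a, of the mitochondrial aspartate aminotransferase pair, from 37.9% to 51.0% (adjusted p = 0.105). A p over the threshold does not show that the copies were read equally.

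**Figure D3:**
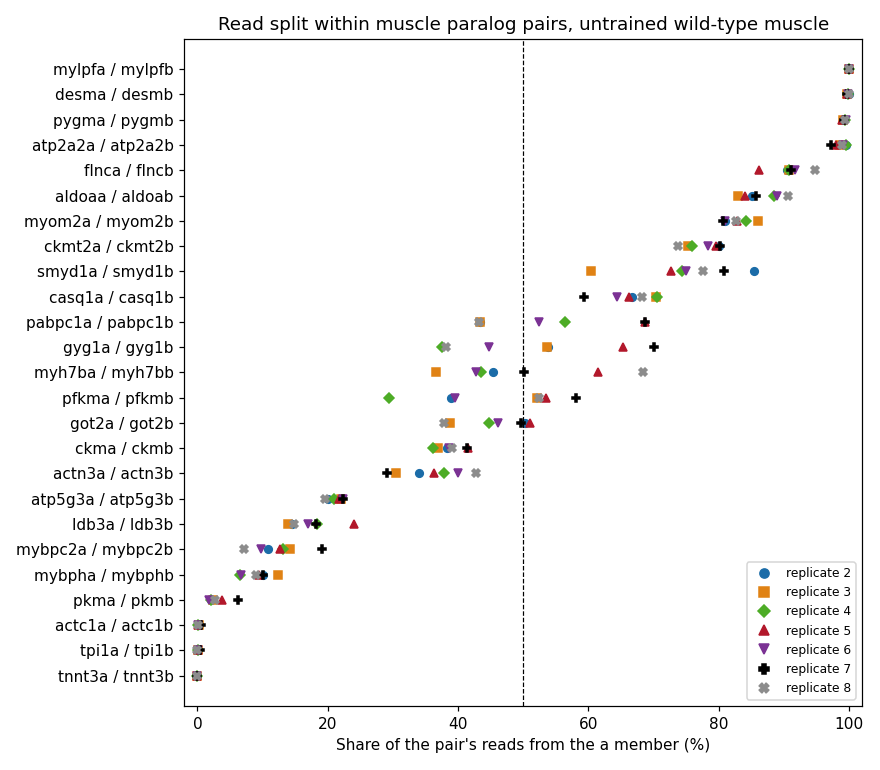
The horizontal axis is the share of a pair's reads that came from its a member, in percent, for the 20 muscle pairs with the most reads and the 5 most even pairs; each symbol is 1 library and the dashed line marks an equal split. The ckma share lies between 36.1% and 41.6% in all libraries, while the gyg1a share runs from 37.5% to 70.15%.

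A few pairs, chosen after their values were seen, had a ratio that moved with the library. In the cytosolic malate dehydrogenase pair, mdh1aa held 43.0%, 43.0%, 59.8%, 89.6%, 47.7%, 86.2% and 67.8% of the reads in replicates 2 to 8. The share was high in replicates 5 and 7, and the test made no call (edgeR adjusted p = 0.120). For trim63, a ubiquitin ligase of muscle breakdown, the trim63a share ran from 28.4% in replicate 5 to 70.7% in replicate 7. For the actin pair acta1, the acta1a share ran from 3.14% in replicate 6 to 28.7% in replicate 7, and acta1b led in every library.

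Between libraries, spread was measured as the SD of log2(CPM + 1) over 7 libraries. Its median over the 5340 genes with a mean of at least 10 CPM was 0.38, and 534 of them (10%) reached the top 10% at 0.71. The biological coefficient of variation over all genes tested by edgeR was 44.0% in untrained wild-type muscle, 32.7% in trained wild-type and 34.0% in untrained transgenic muscle; the difference between groups was not tested. Without replicates 3, 5 and 7 this coefficient was 31.7%, the median SD was 0.21 and the top 10% threshold 0.54. These 3 libraries were set aside after seeing the data, in which they lay apart on the first principal component. A lower spread without them, here and below, follows at least in part from that choice, and nothing is read from it.

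The genes named here were ranked among fully named genes of at least 10 CPM, leaving out unnamed genes and those with clone-style names. Of these, the highest spread was that of bcan, which encodes brevican, a matrix proteoglycan known from the nervous system, with an SD of 3.16. Its levels were 1.24, 0.61, 127.9, 1.33, 0.86, 85.9 and 144.3 CPM in replicates 2 to 8. Replicates 4, 7 and 8 were high and the other 4 near 1 CPM, with nothing between. The SD was also high in the trained wild-type libraries, at 3.36, and in the untrained transgenic libraries, at 3.89. The zinc finger gene znf1179 was likewise below 1 CPM in replicates 2 and 5 and at 14.9 to 37.1 CPM in the others.

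Second was myha, a myosin heavy chain gene beside myhc4, with an SD of 2.96 and a mean of 1004 CPM. Its levels were 1775, 17.9, 192.8, 3232, 23.7, 899.9 and 888.5 CPM in replicates 2 to 8. Replicates 3 and 6 were low, replicate 4 lay between, and the other 4 were high. The SD was 2.46 in trained wild-type muscle. It was 0.29 in untrained transgenic muscle, but there myha was nearly absent, at a mean of 0.63 CPM (0.39 to 1.16). The fast muscle marker myhz2, on the other side of myhc4 in GRCz12tu, with a mean of 118.7 CPM, ran from 12.7 CPM in replicate 7 to 309.3 CPM in replicate 2.

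The protease genes prss59.1, prss59.2, ctrb1 and try, known from the exocrine pancreas, had SDs of 2.42 to 2.61. Prss59.2 was at 0.10 to 0.59 CPM in replicates 2 to 5 and at 38.2, 8.82 and 70.6 CPM in replicates 6, 7 and 8. All 4 proteases were high in the same 3 libraries.

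A further 10 genes were slco1f4, slc13a1, slco1f2, TMEM27, cyp7a1, cyp2k22, slco1f1, pvalb9, ddc and slc22a7b.1; most are solute carriers or enzymes, and pvalb9 is a parvalbumin. They had SDs of 1.82 to 2.21. The organic anion transporter gene slco1f4 was at 154.4 CPM in replicate 5, at 24.7 to 45.8 CPM in replicates 3, 7 and 8, and at 1.59 to 4.16 CPM in replicates 2, 4 and 6. Ddc, the aromatic amino acid decarboxylase gene, had the same order of libraries at the top, with 229.6 CPM in replicate 5 and 90.7 CPM in replicate 3. Cyp7a1, the rate-limiting enzyme of bile acid synthesis in mammals, ran from 1.86 to 100.9 CPM.

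The remaining named genes were krt5, tuba7l and bmb. The epidermal keratin gene krt5 was at 714 CPM in replicate 7 and 10.2 to 184 CPM elsewhere. Tuba7l, a tubulin gene, was at 62.9 and 50.3 CPM in replicates 3 and 7 and 1.66 to 10.9 CPM elsewhere. Bmb had 63.3 CPM in replicate 4 and 0.97 and 1.07 CPM in replicates 7 and 5. Ranked among the same 5340 genes, all 20 named genes were also in the top 10% in trained wild-type muscle, and 18 of 20 in untrained transgenic muscle, the exceptions being myha (SD 0.29) and tuba7l (SD 0.36). The top 10% threshold was also taken from the genes with at least 10 CPM in transgenic muscle itself. The SD of 17 named genes reached it, as that of bmb (SD 0.57) did not. Not all named genes have a mean of 10 CPM there (prss59.1 had 2.31 CPM), so they are not ranked among those genes. Bmb was near the floor in transgenic muscle, at a mean of 0.70 CPM (0.13 to 2.51). In trained wild-type muscle, too, some named genes had a mean below 10 CPM, such as tuba7l (2.65 CPM) and cyp7a1 (3.78 CPM). Over the 534 genes in the top 10%, 300 (56.2%) were in the top 10% in trained wild-type and 261 (48.9%) in untrained transgenic libraries, against 10% of all genes.

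**Figure D4:**
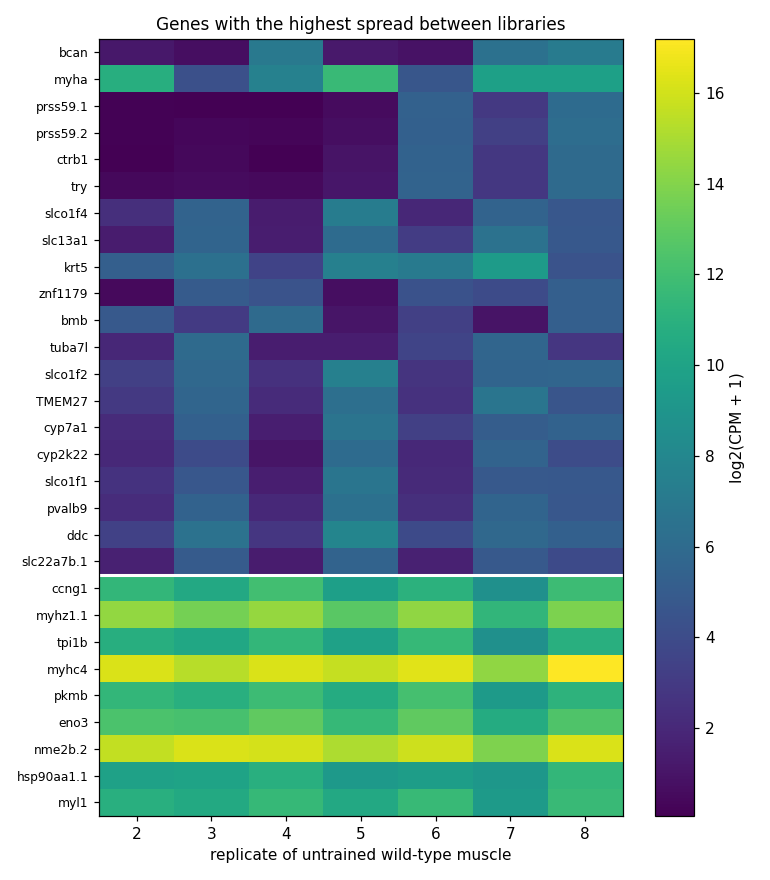
Rows are fully named genes, columns are replicates 2 to 8 and colour is log2(CPM + 1). Above the white line are the 20 with the highest spread among fully named genes of at least 10 CPM. Below it are the fully named abundant genes of at least 1000 CPM with the highest spread other than myha. The 4 pancreatic protease genes are bright in replicates 6, 7 and 8 only, and the abundant genes are darkest in replicate 7.

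Marker lists for other tissues gave the following summed levels; the digestive, skin and kidney lists hold some of the genes named above, so their levels are not separate evidence. Digestive genes, led by prss59.2, summed to 5.92 to 56.2 CPM in replicates 2, 3, 4, 5 and 7 and to 288.9 and 368.8 CPM in replicates 6 and 8. Kidney genes, a list drawn up after the values were seen and led by the cadherin gene cdh17, summed to 695.5 CPM in replicate 5, 551.1 in replicate 7, 320.3 in replicate 3, 219.6 in replicate 8 and 33.0 to 50.5 CPM in the others; by share of counts replicate 7 was above replicate 5. Germ line genes, led by the meiotic gene sycp1, summed to 251.3 and 161.0 CPM in replicates 3 and 7 and to 13.5 to 42.2 CPM elsewhere. Motile cilia genes were likewise highest in replicates 3 and 7, at 265.9 and 178.5 CPM. Their leading gene by mean level, spag1a, stayed at 5.65 to 8.80 CPM, so the rise came from other members. Skin genes summed to 2320 and 1703 CPM in replicates 7 and 5 and to 638 to 983 CPM elsewhere. Their leading gene by mean level, krt8, ran from 234.3 to 521.9 CPM. Red blood cell genes summed to 3016 CPM in replicate 5 and to 716 to 1280 CPM elsewhere. Of these sums, 284.3 to 708.9 CPM came from tmod4, the member with the highest level. Its origin in red blood cells was not tested, so the sums are not read as red blood cell RNA alone. The haemoglobin gene hbaa1 had 589.5 CPM in replicate 5 and 91.1 to 231.5 CPM elsewhere. Lens and eye genes, led by mipb, summed to 0.73 to 2.02 CPM. Nerve and glia genes, by contrast, spanned 316.3 to 430.4 CPM, a narrow range seen only after TMM scaling. Their share of counts ran from 0.0239% in replicate 8 to 0.0734% in replicate 7. The part of such tissue RNA in the spread of other genes was not tested.

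Of abundant genes with a mean of at least 1000 CPM, the 10 with the highest spread after TMM scaling were myha, the cyclin gene ccng1 (SD 1.21), myhz1.1 (1.15), the glycolytic genes tpi1b (0.995), pkmb (0.89) and eno3 (0.86), myhc4 (0.91), nme2b.2 (0.84), the chaperone gene hsp90aa1.1 (0.84) and the light chain gene myl1 (0.83). Only fully named genes were ranked here. All of these 10 but myha had their lowest level in replicate 7. The level of myhc4 was 75319, 41010, 77913, 52861, 88624, 20890 and 149400 CPM in replicates 2 to 8. Replicates 7, 3 and 5 were the lowest and replicate 8 the highest. With libraries scaled by their totals alone, the SDs of myhc4, tpi1b, pkmb, eno3, nme2b.2, hsp90aa1.1 and myl1 fell below the top 10% threshold and those of myha, ccng1 and myhz1.1 stayed above it. Without replicates 3, 5 and 7, myha and hsp90aa1.1 passed it.

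The abundant genes with the lowest spread were tpt1, encoding a conserved growth-associated protein, at SD 0.16, mt-co1 (0.29), the mitochondrial isocitrate dehydrogenase gene idh2 (0.32), the elongation factor gene eef1g (0.33), the small heat shock protein gene hspb6 (0.34), ndufa4l (0.34), the elongation factor gene eef1a1l2 (0.35), mt-nd3 (0.36), slc25a5 (0.36) and actn3b (0.37). This ranking, too, covers fully named genes only. Tpt1 ranged from 1186 to 1618 CPM. Scaling by totals alone moved tpt1 to an SD of 0.36 and eef1a1l2 to 0.61, and lowered actn3b to 0.11, idh2 to 0.15 and ndufa4l to 0.12. The order within this group therefore depended on the scaling.

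By list, 11 of 23 fast fibre contractile genes with at least 10 CPM were in the top 10% of spread, against 10% of all genes, and 19 of the 23 had their lowest level in replicate 7, as did 40.4% of all 5340 genes. Scaled by totals alone, 6 were in the top 10% and 13 were lowest in replicate 7. The 40.4% holds for TMM scaling only, so nothing is read from the 13. In number, 6 remained in the top 10% without replicate 7 and 4 without replicates 3, 5 and 7. Glycolysis and glycogen genes had 10 of 31 in the top 10%, 2 with totals alone, 0 without replicate 7 and 2 without replicates 3, 5 and 7. Slow fibre contractile genes, led by smyhc2, had 1 of 14, mitochondrially encoded genes 1 of 13, Z disc and M band genes 4 of 34, calcium handling genes 5 of 25, creatine and adenylate buffer genes 2 of 12 and myogenic genes, led by the transcription factor gene mef2ca, 1 of 11. The fast list and the slow list thus had different shares in the top 10%, a difference that was not tested.

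Among signalling and stress lists, atrophy and stress genes, led by the glucocorticoid-responsive gene fkbp5 (218.7 to 865.6 CPM), had 8 of 17 in the top 10%, and 11 of the 17 were highest in replicate 8, as were 24.9% of all 5340 genes. Clock genes, led by nr1d2a, a nuclear receptor of the circadian loop (37.0 to 173.0 CPM), had 8 of 19, and 4 without replicate 2 or 5 without replicate 3. Heat shock genes, led by hspb6, had 9 of 25, with 15 of the 25 highest in replicate 8, and the number in the top 10% was 3 without that library and 15 without replicates 3, 5 and 7. Immediate early genes, led by nr4a1, had 3 of 8, with 6 of the 8 highest in replicate 8. With totals alone, 8 heat shock genes, 7 atrophy and stress genes and 7 clock genes were in the top 10%. The genes highest in replicate 8 then numbered 8 of 25 for heat shock, 3 of 8 for immediate early and 6 of 17 for atrophy and stress. The 24.9% holds for TMM scaling only, and the share of all genes with totals alone is not given, so nothing is read from these last counts.

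Lists of other cells gave 6 of 9 for red blood cells (0 without replicate 5 and 3 without replicates 3, 5 and 7), 2 of 6 for white blood cells, led by cd74a, 2 of 7 for skin, 1 of 3 for interferon response, led by stat1a, 1 of 4 for adipocytes, led by fabp11a, 1 of 1 for bone and cartilage (phex) and 1 of 1 for heart (vmhc). None was in the top 10% of 5 nerve and glia genes, of 17 tendon and matrix genes, led by col1a1b, of 8 endothelium genes, led by kdrl, of 6 sterol and lipid synthesis genes, led by acaca, or of the single liver (rbp4) and proliferation (pcna) genes that reached 10 CPM. All 5 digestive genes (1 without replicate 8), both germ line genes and all 11 kidney genes with a mean of at least 10 CPM were in the top 10%, but each of these digestive and kidney genes, and sycp1, was below 10 CPM in at least 1 library and passed the filter through the libraries where it was high, so nothing is read from these counts. Phex, at 5.43 CPM in its lowest library, passed the filter in the same way, so nothing is read from its count either. Below a mean of 10 CPM were 11 of 16 digestive, 29 of 31 germ line and 5 of 16 kidney genes. No motile cilia or lens and eye gene reached a mean of 10 CPM.

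**Figure D5:**
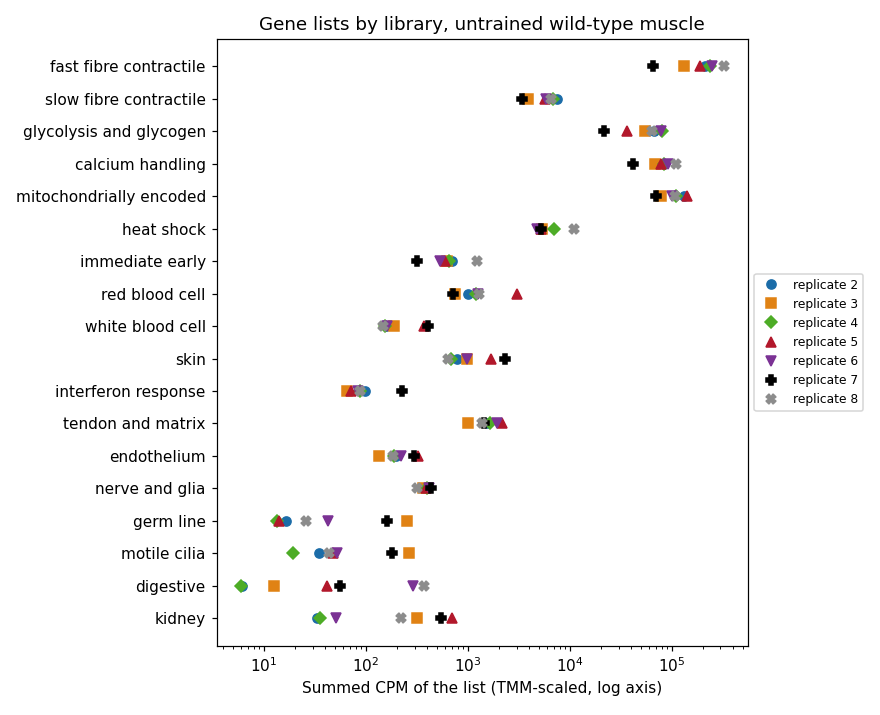
Each row is a gene list, the horizontal axis is its summed CPM after TMM scaling on a log axis, and each symbol is 1 library. Fast fibre genes span 65913 to 325158 CPM with replicate 7 lowest, nerve and glia genes 316.3 to 430.4 CPM, and digestive genes 5.92 to 368.8 CPM.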

How the data were processed

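Per the labels' protocols, stranded poly(A)-selected libraries were sequenced paired-end. The values used are raw counts of reads for each gene, as deposited by the authors. STAR 2.4.0i, HTSeq 0.9.1, DESeq2 and the build GRCz10 appear in the submitters' processing notes. Neither the annotation release nor whether counting used strand is given in the sources used here, so overlapping and antisense genes may share reads. The 7 columns whose names match untrained wild-type samples were used, and 0 count columns were left unmapped. Lines that name no gene were dropped: reads without a feature (6.19% ± 1.01 of all reads), ambiguous reads (1.06% ± 0.12) and reads with more than 1 alignment (9.07% ± 1.05). Symbols came from the authors' deposited comparison table (31312 of 31953 IDs), whose values were not used. The members, gene lists and tests were chosen with earlier results of these data known, and the kidney list after these values were seen.

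Levels are CPM with TMM scaling within the group (edgeR 4.0.16, R 4.3.3). Pairs were tested with edgeR's quasi-likelihood F test on counts, with pairs as features, the library as a block and Benjamini-Hochberg adjustment over 2280 pairs; an adjusted p under 0.05 is a call, and the SE is the log2 ratio divided by the square root of F. The planned correction for coding length could not be made, since lengths were not used here, so shares of reads are given. Spread is the SD of log2(CPM + 1). The rule for named genes took the 20 genes with the highest mean share, the 20 muscle pairs with the highest CPM, the 5 most and 5 least even pairs of at least 50 CPM, the 20 genes with the highest spread among fully named genes of at least 10 CPM, the 10 highest and 10 lowest of at least 1000 CPM, and the member with the highest CPM of each list; 1 such member is not reported here. Family members are given by share of reads. Over 21 pairs of libraries none agreed within sampling noise. Both the pair test and the ranking were tested on simulated data. With a dispersion of 0.2, the pair test recovered 30 of 100 planted log2 ratios of 1 and 97 of 100 of 2, with 7 false calls. The simulated members were drawn independently of each other, and planted pairs were 100 of each size among 2280. Of the real pairs tested, 83.8% were called, so these rates may not hold for the real pairs. A pair without a call may still differ. The ranking put 200 of 200 genes given extra spread in the top 10%. That extra spread was set far above the threshold of the real data, so the result does not show how smaller spreads would rank. Alternatives were limma 3.58.1, an exact sign-flip test, other filters, scalings, pseudocounts and measures, and libraries left out; leaving out replicates 3, 5 and 7 together and the restriction to matching descriptions were added after seeing the data.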

Additional observations from a re-analysis of the deposited data

Results flagged for a closer look

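Of 80 values examined over the 7 libraries, 7 had 1 library far from the others by Dixon's criterion, which chance alone meets for about 1 group in 20. Replicate 7 had the highest TMM factor, 1.71 against 1.16 for the next library. It also needed the most genes, 71 against 26, to reach 50% of its counts, and had the highest summed level of interferon response genes, 227.3 CPM against 98.6 CPM. Within that list, stat1b was at 39.1 CPM in replicate 7 and 0.81 to 6.45 CPM elsewhere, and the antiviral gene rsad2 at 16.9 CPM against 0.43 to 2.16 CPM. The tpi1a share of the triose phosphate isomerase pair was highest in replicate 7 as well, 0.359% against 0.157%.

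Replicate 8 had the highest summed level of immediate early genes, 1224 CPM against 691 CPM, with jun at 352.8 CPM and btg2 at 216.1 CPM where the other libraries had 54.3 to 160.7 CPM and 23.5 to 76.9 CPM. Its heat shock genes summed to 11084 CPM against 7054 CPM in the next library, a lead seen only after TMM scaling: by share of counts replicate 7 was highest, at 0.891% against 0.836% in replicate 8. By share, replicate 8 still led for immediate early genes, at 0.0923% against 0.0726% in the next library. Replicate 5 had the highest summed level of red blood cell genes, 3016 CPM against 1280 CPM, with alas2, the haem synthesis enzyme gene of red blood cells, at 66.3 CPM and 16.4 to 30.8 CPM elsewhere.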

How the results depend on the processing

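No paired analysis was possible because 1 group was analysed and no groups were compared. Values per coding kilobase, limma on such values and a minimum protein identity had been intended and were not run because lengths and proteins were not used here. The number of pairs called was 1854 to 2094 under every alternative run except the restriction to matching descriptions (1717 of 2047). The 2094 came with no filter on counts, where 2736 pairs were tested and not 2280. For muscle pairs the number was 72 to 76 (57 of 64 with matching descriptions, and 76 of 88 with no filter on counts). Over single muscle pair ratios, 1059 kept direction and side of the threshold, 21 lost the call, 5 gained it and 11 changed sign. Those 11 were in uncalled pairs: pabpc1 at -0.067 without replicates 3, 5 and 7; gyg1 at -0.068 to 0.26 leaving out 1 replicate, -0.13 without 3 and 7, and -0.38 without 3, 5 and 7; myh7b at -0.20 to 0.12 leaving out 1 replicate and 0.14 without 3 and 7; eef1a1 at -0.061 to 0.81 leaving out 1 replicate. Outside the 10 most abundant genes, the shares were 11.6% for fast fibre, 0.872% for slow fibre, 4.60% for calcium handling and 1.54% for creatine and adenylate buffer genes; outside mitochondrially encoded genes, calcium handling held 8.62%. Of the 20 genes with the highest spread, 12 were kept with a pseudocount of 5, 7 with the median absolute deviation, 5 with a minimum of 50 CPM (which removes most of them), 9 without replicates 3, 5 and 7, and 12 to 17 leaving out 1 replicate. Fast fibre genes in the top 10% numbered 6 with library totals only, 5 without replicates 3 and 7, 4 without 3, 5 and 7, and 6 to 13 leaving out 1 replicate. The coefficient of variation was 39.6% without replicates 3 and 7, 31.7% without 3, 5 and 7, and 42.4% to 45.7% leaving out 1 replicate. The causes were not tested.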
